A study of Mus musculus with 6 samples.

Results

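The 8 genes described here encode the liver X receptors and a group of proteins known for cholesterol efflux, lipoprotein handling and membrane phospholipid remodelling: Nr1h2, Nr1h3, Abca1, Abcg1, Mylip, Apoe, Lpcat3 and Scarb1. They were taken by gene symbol from a table of 21988 genes, and all 8 passed the filter on low values that left 13332 genes for testing. The table gives TPM, a transcript level scaled by transcript length and by the library total, in mouse embryonic fibroblasts (MEFs). These are primary connective tissue cells isolated from embryos of a pregnant C57BL/6 mouse at 13.5 days of gestation. The cells carried no named allele or agent and were passaged in series in medium with fetal bovine serum. They were taken at 2, 8 and 14 cumulative population doublings, called PD2, PD8 and PD14. Each stage had 1 rRNA-depleted, strand-specific library and 1 poly(A)-enriched library, so the 2 libraries of a stage differed in method and 6 libraries were compared in all.

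Liver X receptors are nuclear receptors that pair with retinoid X receptors and are switched on by oxysterols and by sterol intermediates of cholesterol synthesis. Without ligand they sit on their target genes with corepressors, and with ligand they induce genes that move cholesterol out of the cell, limit lipoprotein uptake and remodel membrane phospholipids. Nr1h2 encodes the broadly expressed receptor LXRβ, and Nr1h3 encodes LXRα, which is best known from liver, fat and macrophages.

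The 3 promoters shown belong to both receptors and to Abca1, the efflux gene whose promoter holds a well-known LXR element. Each window runs from 250 bases before to 50 bases after the RefSeq transcription start (GRCm38.p6), reads 5′ to 3′ on the gene's own strand, and has motif matches in capitals. The motifs were searched on both strands and were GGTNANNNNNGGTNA, a pair of half-sites of the kind LXR and its partner bind, and CGGAAG, the core bound by ETS factors. Both were chosen after the sequences had been seen.
Abca1, chr4:53159846-53160145, minus strand: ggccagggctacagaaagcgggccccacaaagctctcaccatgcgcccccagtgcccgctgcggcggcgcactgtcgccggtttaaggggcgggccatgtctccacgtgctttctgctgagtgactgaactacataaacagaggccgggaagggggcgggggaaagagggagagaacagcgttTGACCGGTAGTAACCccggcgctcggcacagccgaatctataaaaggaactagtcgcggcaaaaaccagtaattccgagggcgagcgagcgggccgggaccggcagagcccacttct
Nr1h2, chr7:44553916-44554215, minus strand: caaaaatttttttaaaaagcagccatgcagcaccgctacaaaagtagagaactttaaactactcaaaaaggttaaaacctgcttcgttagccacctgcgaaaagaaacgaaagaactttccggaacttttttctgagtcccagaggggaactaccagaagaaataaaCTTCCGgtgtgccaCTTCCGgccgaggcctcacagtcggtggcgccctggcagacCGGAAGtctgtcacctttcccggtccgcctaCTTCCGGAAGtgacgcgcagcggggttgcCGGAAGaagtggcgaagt
Nr1h3, the first of 2 windows, chr2:91195067-91195366, minus strand: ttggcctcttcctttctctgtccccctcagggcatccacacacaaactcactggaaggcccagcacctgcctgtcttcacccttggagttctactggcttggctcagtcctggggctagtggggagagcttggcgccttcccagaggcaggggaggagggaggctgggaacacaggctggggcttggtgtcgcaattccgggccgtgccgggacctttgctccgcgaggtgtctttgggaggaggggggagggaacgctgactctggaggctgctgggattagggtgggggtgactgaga
The Abca1 window held 1 match to the half-site pair, on the opposite strand at bases -67 to -53 from the start, a motif found in 0.718% of the 32851 promoter windows of the table. The Nr1h2 window held 6 matches to the ETS core, of which 2 overlapped each other. This core occurred in 16.9% of all windows, and 1.04% of windows held 3 or more matches. The Nr1h3 windows held neither motif. Windows were matched for 6 of the 8 genes, and those of Mylip, Apoe and Lpcat3 held no match to the half-site pair. These matches describe letters in a window and show nothing about binding in these cells.

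The fibroblast label was checked against fibroblast markers. All 15 fibroblast markers passed the filter, and their summed level was 23516, 35655 and 37676 TPM at PD2, PD8 and PD14 in rRNA-depleted libraries and 19172, 27729 and 25050 TPM in poly(A) libraries. Between 12554 and 12827 genes reached 1 TPM per library. The proliferation gene Mki67 had 121, 56.4 and 36.4 TPM at PD2, PD8 and PD14 in rRNA-depleted libraries and 52.1, 20.1 and 7.46 TPM in poly(A) libraries, while Cdkn2a, which encodes cell cycle inhibitors that accumulate with passage, had 40.2, 185 and 190 TPM and 62.1, 376 and 519 TPM in the same order. These are bulk samples, so fewer cells of a type and less RNA per cell cannot be told apart in any value below.

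The receptor Nr1h3 rose and the lipoprotein receptor Scarb1 fell at PD14 against PD2, and the other 6 genes did not pass the test. In that comparison 1 of the 8 genes was called higher and 1 lower (limma, Benjamini-Hochberg adjusted p under 0.05 over all genes tested), beside 6.41% of all genes called higher and 4.77% called lower. With 8 genes, 1 call in each direction is too few to set the group apart from all genes. The median log2 change of the 8 genes was 0.21, beside 0.06 over all genes tested. The change had the same sign in both library methods for 6 of the 8 genes, beside 69.6% of all genes tested.

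Nr1h3, on the minus strand of chromosome 2 (mm10, 91184061 to 91202834), had 1.87, 5.28 and 6.57 TPM at PD2, PD8 and PD14 in rRNA-depleted libraries. In poly(A) libraries it had 1.10, 3.74 and 6.24 TPM. Both PD14 libraries lay above both PD8 libraries, and those lay above both PD2 libraries, so the 3 stages did not overlap. The level averaged 6.40 ± 0.23 TPM at PD14 and 1.48 ± 0.54 TPM at PD2 (SD, n = 2 each, 1 library of each method). The PD14 over PD2 change was 1.59 ± 0.24 (SE) on the log2(TPM + 1) scale, with a limma adjusted p of 0.0274. By TPM alone the ratio of PD14 to PD2 was 3.51 within rRNA-depleted libraries and 5.68 within poly(A) libraries. Most of that distance was already present at PD8, where Nr1h3 averaged 4.51 ± 1.09 TPM (SD, n = 2) and the log2 change over PD2 was 1.15 ± 0.24, with a limma adjusted p of 0.122. The last step, PD14 over PD8, gave 0.44 ± 0.24 with a limma adjusted p of 0.911. The Nr1h3 call at PD14 was lost in limma fits without the PD14 rRNA-depleted library (log2 change 1.78, adjusted p = 0.0685), the PD14 poly(A) library (1.41, 0.111), the PD8 rRNA-depleted library (1.59, 0.0904) or the PD8 poly(A) library (1.59, 0.0915), and it held without either PD2 library. Of its annotated exons, 34 bases overlap Gm13783 on the same strand.

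Nr1h2, on the minus strand of chromosome 7 (mm10, 44549616 to 44553951), was the more abundant receptor in every library. Its level was 36.6, 42.6 and 42.7 TPM at PD2, PD8 and PD14 in rRNA-depleted libraries and 48.6, 63.0 and 63.6 TPM in poly(A) libraries. Within each method PD8 and PD14 lay close together and above PD2, but across methods the groups overlapped. For Nr1h2 the PD14 over PD2 log2 change was 0.30 ± 0.13, with a limma adjusted p of 0.182. Set against this near-level partner, Nr1h3 stood at 5.11%, 12.4% and 15.4% of the Nr1h2 level at PD2, PD8 and PD14 in rRNA-depleted libraries and at 2.26%, 5.93% and 9.82% in poly(A) libraries. The share was higher at each later stage in both methods, and Nr1h2 remained the major receptor transcript at all of them.

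**Figure D1:**
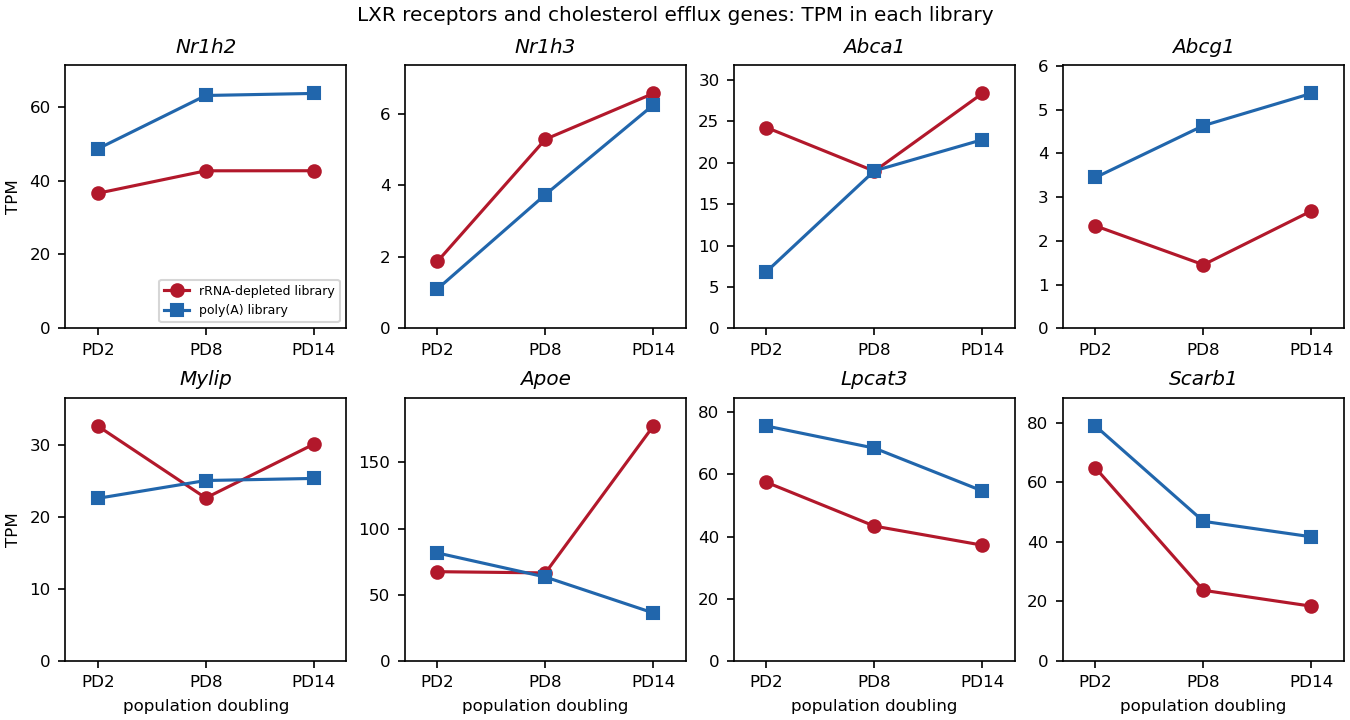
TPM of each of the 8 genes (y axes, linear, each from 0) at PD2, PD8 and PD14 (x axes), 1 point per library, with red circles for rRNA-depleted and blue squares for poly(A) libraries. Nr1h3 climbed in both methods to 6.57 and 6.24 TPM at PD14, Scarb1 dropped in both, and Apoe parted at PD14 with 178 TPM in the rRNA-depleted library and 36.2 TPM in the poly(A) library.

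Scarb1 encodes SR-BI, the receptor that takes up cholesteryl esters from high-density lipoprotein and lets free cholesterol pass in both directions. It lies on the minus strand of chromosome 5 (mm10, 125277087 to 125341094). Its level was 64.8, 23.7 and 18.4 TPM at PD2, PD8 and PD14 in rRNA-depleted libraries and 78.9, 46.9 and 41.7 TPM in poly(A) libraries. Both PD14 libraries lay below both PD2 libraries, and the PD8 libraries did as well. The mean was 30.0 ± 16.5 TPM at PD14 and 71.9 ± 10.0 TPM at PD2 (SD, n = 2 each), a spread that includes the difference between methods. The PD14 over PD2 log2 change was -1.34 ± 0.24, with a limma adjusted p of 0.0338. The TPM ratio of PD14 to PD2 was 0.283 in rRNA-depleted libraries, a deeper fall than the 0.528 in poly(A) libraries. PD8 over PD2 gave -1.08 ± 0.24 with a limma adjusted p of 0.123, and PD14 over PD8 gave -0.26 ± 0.24 with 0.968. The Scarb1 call at PD14 was lost in limma fits without the PD14 rRNA-depleted library (log2 change -1.07, adjusted p = 0.113), the PD14 poly(A) library (-1.60, 0.0889), the PD8 rRNA-depleted library (-1.34, 0.0844) or the PD8 poly(A) library (-1.34, 0.0896). Without the PD2 poly(A) library Scarb1 was also called at PD8, with a log2 change of -1.46 and a limma adjusted p of 0.0285.

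The 2 efflux transporters did not pass the test at any stage. Abca1 loads cholesterol and phospholipid onto lipid-poor apolipoprotein A-I and lies on the minus strand of chromosome 4 (mm10, 53030787 to 53159895). It had 24.3, 19.0 and 28.4 TPM at PD2, PD8 and PD14 in rRNA-depleted libraries and 6.84, 19.0 and 22.8 TPM in poly(A) libraries. The stages overlapped, and the PD2 rRNA-depleted library stood at 3.55 times the PD2 poly(A) library, whereas at PD8 that ratio was 0.998. The PD14 over PD2 log2 change was 0.91 ± 0.42 with a limma adjusted p of 0.210, made of 0.22 within rRNA-depleted and 1.60 within poly(A) libraries. Without the PD2 rRNA-depleted library limma called Abca1 higher both at PD14 (log2 change 1.68, adjusted p = 0.0113) and at PD8 (1.28, 0.0488). PD14 over PD8 gave 0.40 ± 0.42 with a limma adjusted p of 0.970.

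Abcg1, which passes cholesterol on to mature high-density lipoprotein, lies on the plus strand of chromosome 17 (mm10, 31057675 to 31117988) and was a low transcript throughout. It had 2.34, 1.45 and 2.68 TPM at PD2, PD8 and PD14 in rRNA-depleted libraries and 3.45, 4.63 and 5.37 TPM in poly(A) libraries. Poly(A) libraries were higher at every stage, and the stages overlapped. Its PD14 over PD2 log2 change was 0.33 ± 0.29, with a limma adjusted p of 0.469. Abca1 exceeded Abcg1 in all 6 libraries, by 10.4, 13.1 and 10.6 times at PD2, PD8 and PD14 in rRNA-depleted libraries and by 1.98, 4.11 and 4.24 times in poly(A) libraries.

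**Figure D2:**
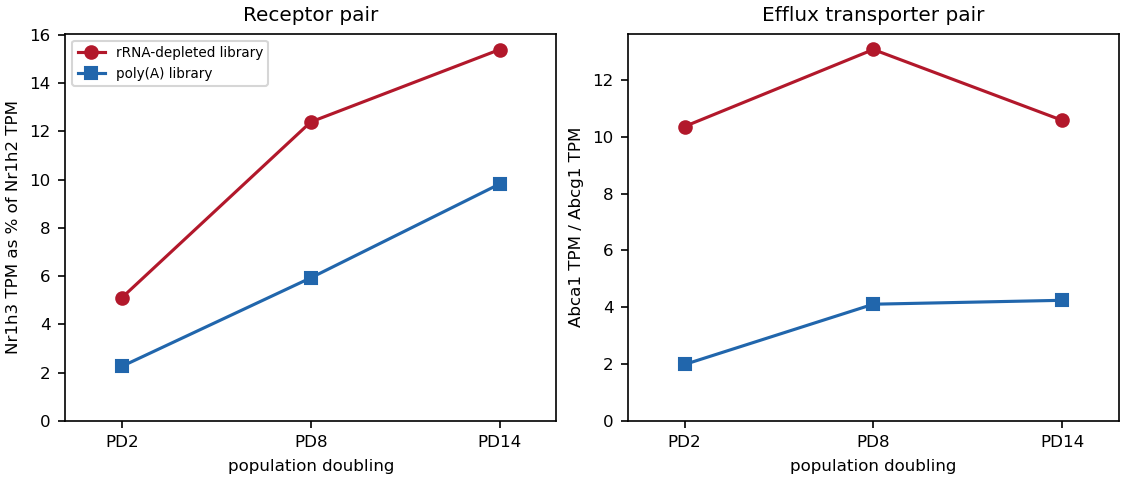
Left, Nr1h3 TPM as a percentage of Nr1h2 TPM; right, Abca1 TPM divided by Abcg1 TPM; both at PD2, PD8 and PD14, 1 point per library, with red circles for rRNA-depleted and blue squares for poly(A) libraries. The receptor share increased in both methods, to 15.4% and 9.82% at PD14, while the transporter ratio moved in poly(A) libraries between 1.98 and 4.24 and stayed between 10.4 and 13.1 in rRNA-depleted ones.

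Apoe, the apolipoprotein that cells release with effluxed lipid, gave opposite answers in the 2 methods. It lies on the minus strand of chromosome 7 (mm10, 19696109 to 19699188). Its level was 67.4, 66.5 and 178 TPM at PD2, PD8 and PD14 in rRNA-depleted libraries and 81.6, 63.4 and 36.2 TPM in poly(A) libraries. At PD2 and PD8 the methods lay within 0.826 and 1.05 times of each other, and at PD14 the rRNA-depleted library was 4.90 times the poly(A) library. The PD14 over PD2 log2 change was therefore 1.38 within rRNA-depleted and -1.15 within poly(A) libraries, with a fitted value of 0.12 ± 0.61 and a limma adjusted p of 0.912. No direction is given for Apoe.

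Lpcat3 adds polyunsaturated acyl chains to lysophospholipids and lies on the plus strand of chromosome 6 (mm10, 124663027 to 124704418). It had 57.5, 43.4 and 37.2 TPM at PD2, PD8 and PD14 in rRNA-depleted libraries and 75.6, 68.5 and 54.7 TPM in poly(A) libraries. Both PD14 libraries lay below both PD2 libraries. For Lpcat3 the log2 change, PD14 over PD2, was -0.54 ± 0.13, with a limma adjusted p of 0.0619. With quantile normalization or with the median of all genes tested made equal, limma called it lower (log2 changes -0.60 and -0.63, adjusted p = 0.0462 and 0.0423). In the annotation 334 of its exon bases overlap Emg1 on the opposite strand, and the poly(A) protocol is not described as stranded. Mylip encodes IDOL, the ubiquitin ligase that marks lipoprotein receptors for degradation, on the plus strand of chromosome 13 (mm10, 45389742 to 45412022). It had 32.7, 22.7 and 30.2 TPM in rRNA-depleted and 22.6, 25.1 and 25.4 TPM in poly(A) libraries at the 3 stages. Its PD14 over PD2 log2 change was 0.02 ± 0.20, with a limma adjusted p of 0.949, and its sign differed between methods and turned to -0.07 under either of those 2 scalings.

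Ordered by level, Apoe, Scarb1, Lpcat3, Nr1h2, Mylip, Abca1, Abcg1 and Nr1h3 ran from highest to lowest at PD2 in both methods. At PD14 the order was Apoe, Nr1h2, Lpcat3, Mylip, Abca1, Scarb1, Nr1h3 and Abcg1 in the rRNA-depleted library and Nr1h2, Lpcat3, Scarb1, Apoe, Mylip, Abca1, Nr1h3 and Abcg1 in the poly(A) library. Nr1h3 and Abcg1 were the lowest 2 in all 6 libraries, and Nr1h3 passed Abcg1 in both methods only at PD14. By mean level at PD14, Nr1h2 (53.1 ± 14.8 TPM) and Lpcat3 (46.0 ± 12.4 TPM) lay within an SD of each other. Mylip (27.8 ± 3.37 TPM) and Abca1 (25.6 ± 3.95 TPM) did as well (n = 2 each). Each SD includes the difference between methods. Within each PD14 library, Nr1h2 stood above Lpcat3 and Mylip above Abca1.

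Both calls belonged to PD14 against PD2, and none of the 8 genes was called in the shorter steps. At PD8 against PD2, limma called 0 of the 8 genes, beside 0.0225% of all genes tested. An unadjusted p under 0.05 was found for 2 of the 8, Nr1h3 and Scarb1, beside 2713 of the 13332 genes tested. At PD14 against PD8, limma called 0 of the 8 and 0% of all genes. None of the 8 had an unadjusted p under 0.05, beside 746 of the 13332 genes tested. A test of any change over the 3 stages called 0 of the 8 genes, beside 1.46% of all genes. Nr1h3 came nearest in it with a limma adjusted p of 0.0659, then Scarb1 with 0.0778. The contrast of the later step with the earlier one called 0 of the 8 in limma, beside 0% of all genes. In it 0 of the 8 had an unadjusted p under 0.05, so none of their changes was shown to slow or speed up.

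Counted by overlap alone, 1 of the 8 genes (Nr1h3) had both PD14 libraries above both PD2 libraries, beside 22.4% of all genes, and 2 (Lpcat3 and Scarb1) had both below, beside 15.8%. At PD8 against PD2 the counts were 1 higher (Nr1h3) and 2 lower (Apoe and Scarb1), beside 19.5% and 13.7% of all genes. Apoe counted on a narrow margin, 66.5 against 67.4 TPM in rRNA-depleted libraries. At PD14 against PD8, 3 genes (Nr1h3, Abca1 and Mylip) were higher, beside 8.12%, and 0 were lower, beside 7.07%. Mylip counted on 25.4 against 25.1 TPM in poly(A) libraries. None of the 3 passed the test in that step (limma adjusted p = 0.911, 0.970 and 0.968). PD8 and PD2 libraries enter more than 1 of these comparisons, so the counts are not independent of each other.

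**Figure D3:**
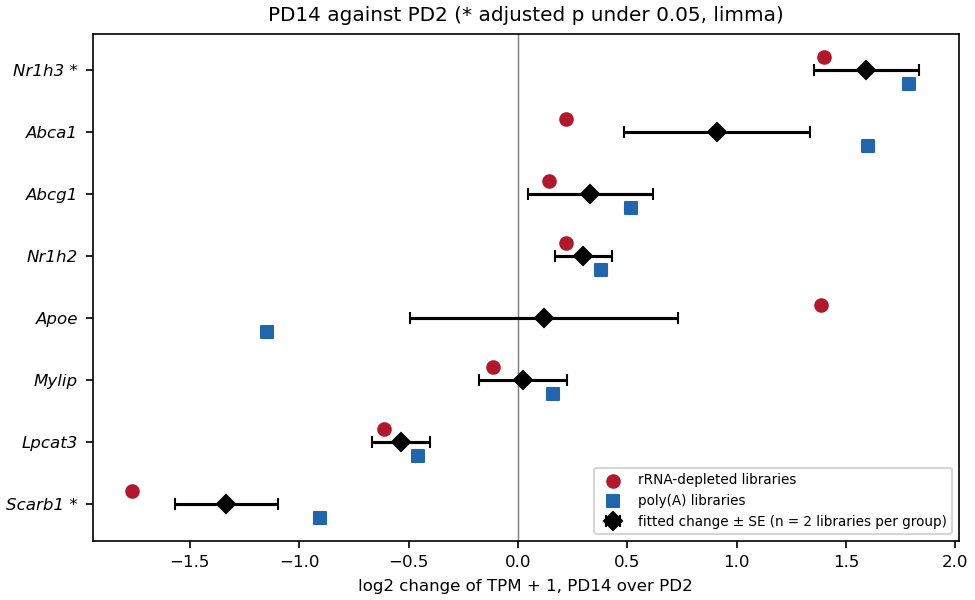
Log2 change of TPM + 1, PD14 over PD2 (x axis), for the 8 genes (rows), with the limma value and its SE as black diamonds and bars and the change within rRNA-depleted (red circles) and poly(A) libraries (blue squares). The 2 genes with an asterisk, Nr1h3 at 1.59 and Scarb1 at -1.34, had adjusted p under 0.05, and the 2 methods lay on opposite sides of 0 for Apoe and Mylip.

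The genes with profiles nearest to Nr1h3 and Scarb1 were looked up among 10993 genes with a mean of at least 5 TPM, by distance between log2(TPM + 1) profiles over the 6 libraries after each method's mean had been removed. Nearest to Nr1h3 were Reck (distance 0.135), Sspn (0.160) and Samd9l (0.163). Reck, an inhibitor of matrix proteases, had 35.7, 82.6 and 105 TPM at PD2, PD8 and PD14 in rRNA-depleted and 19.3, 41.6 and 63.4 TPM in poly(A) libraries. Nearest to Scarb1 were Dpysl3 (0.137), Fxyd5 (0.148) and Mapk6 (0.188). Dpysl3, a cytoskeletal protein of growing cell processes, had 195, 68.4 and 54.2 TPM at the 3 stages in rRNA-depleted and 454, 290 and 273 TPM in poly(A) libraries. By the way they were chosen, these genes share the shape of Nr1h3 or Scarb1, with the greater part of the shift before PD8.

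Beyond the 8 genes, other LXR targets moved both ways at PD14 against PD2. Of 20 further target genes, 12 passed the filter, and limma called 3 higher and 3 lower. Over all genes tested, 6.41% were called higher and 4.77% lower, the shares for every list below in this comparison. The median log2 change of the 12 was -0.14, beside 0.06 over all genes tested. It was 0.07 within rRNA-depleted and -0.28 within poly(A) libraries. Pltp, which transfers phospholipids between lipoproteins, had 43.7, 84.6 and 126 TPM at PD2, PD8 and PD14 in rRNA-depleted libraries and 21.9, 63.0 and 96.7 TPM in poly(A) libraries, a log2 change of 1.80 ± 0.18 (limma adjusted p = 0.0178). Smpdl3a, a phosphodiesterase related to acid sphingomyelinase and named beyond the rule of 4 genes per list, had 28.0, 48.7 and 76.6 TPM and 27.1, 71.0 and 105 TPM in the same order, a log2 change of 1.67 ± 0.18 (limma adjusted p = 0.0190). The lipopolysaccharide-binding protein gene Lbp was the third, at 4.12 ± 0.28 (limma adjusted p = 0.0125). In both methods these 3 genes were higher at PD8 than at PD2 and higher again at PD14. They were named because they were called higher at PD14, and a link to Nr1h3 was not tested.

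The 3 LXR targets called lower act in fatty acid synthesis and desaturation and are also driven by SREBP factors. Scd1 had 259, 105 and 61.8 TPM at PD2, PD8 and PD14 in rRNA-depleted libraries and 258, 128 and 68.3 TPM in poly(A) libraries, a log2 change of -1.98 ± 0.13 (limma adjusted p = 0.0125). Scd2 changed by -1.73 ± 0.17 (limma adjusted p = 0.0168) and Fasn, the fatty acid synthase, by -1.06 ± 0.14 (limma adjusted p = 0.0232). Srebf1 itself, a textbook LXR target, had 48.7, 44.6 and 46.1 TPM in rRNA-depleted and 57.9, 51.8 and 46.3 TPM in poly(A) libraries, and its log2 change of -0.20 ± 0.13 did not pass (limma adjusted p = 0.360).

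**Figure D4:**
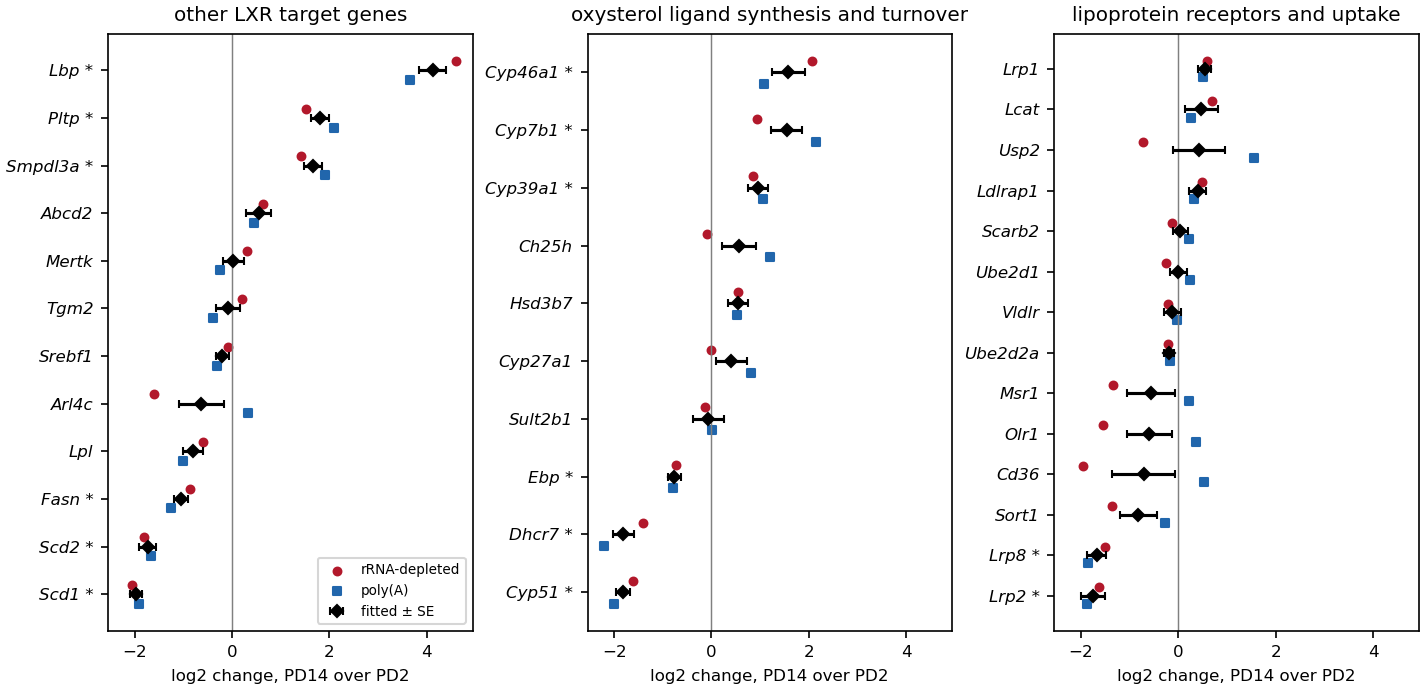
Log2 change of TPM + 1, PD14 over PD2 (x axes), for the tested genes (rows) of 3 lists: other LXR targets, oxysterol synthesis and turnover, and lipoprotein receptors and uptake. Black diamonds and bars are the limma value and SE, red circles rRNA-depleted and blue squares poly(A) libraries, and asterisks mark adjusted p under 0.05. LXR targets spread from Lbp at 4.12 to Scd1 at -1.98, and no uptake gene with an asterisk lies above 0.

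Among the partners and coregulators of the receptors, 14 of 15 genes passed the filter, with a median log2 change of 0.14. Limma called 2 higher and 0 lower, beside 6.41% and 4.77% of all genes. Rxra, the partner receptor RXRα, had 50.3, 77.4 and 73.6 TPM at PD2, PD8 and PD14 in rRNA-depleted libraries and 28.2, 51.9 and 62.0 TPM in poly(A) libraries, a log2 change of 0.82 ± 0.17 (limma adjusted p = 0.0450). Nrip1, the corepressor RIP140, changed by 0.90 ± 0.15 (limma adjusted p = 0.0318). The corepressor gene Ncor1, at -0.14 ± 0.14, did not pass (limma adjusted p = 0.523). Rxrg stayed below the filter.

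Genes for the synthesis and turnover of LXR ligands were called in both directions. Of 10 tested genes of 11, limma called 3 higher and 3 lower, beside 6.41% and 4.77% of all genes. The median log2 change of the 10 was 0.47, with -0.05 within rRNA-depleted and 0.67 within poly(A) libraries. The 3 lower genes build sterols: Cyp51 at -1.81 ± 0.15, Dhcr7 at -1.81 ± 0.22 and Ebp at -0.76 ± 0.14 (limma adjusted p = 0.0166, 0.0206 and 0.0350). The 3 higher genes hydroxylate cholesterol or its oxysterols: Cyp46a1 at 1.58 ± 0.34, Cyp7b1 at 1.54 ± 0.31 and Cyp39a1 at 0.96 ± 0.20 (limma adjusted p = 0.0485, 0.0430 and 0.0452). Cyp46a1 was a low transcript, with 0.606, 2.02 and 5.76 TPM at PD2, PD8 and PD14 in rRNA-depleted libraries and 0.453, 1.52 and 2.07 TPM in poly(A) libraries. It reached 1 TPM only at PD8 and PD14, so it passed the filter through the stages where it was high. With 1 TPM required in all 6 libraries limma called 2 oxysterol genes higher and 3 lower. Ebp and Cyp39a1 were named beyond the rule of 4. The oxysterol-making enzymes Ch25h, at 0.56 ± 0.35, and Cyp27a1, at 0.41 ± 0.31, did not pass (limma adjusted p = 0.324 and 0.412).

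On the uptake side, where Mylip acts, 14 of 15 genes were tested and limma called 0 higher and 2 lower. The shares over all genes, here and for the next list, were 6.41% higher and 4.77% lower. The median log2 change of the 14 was -0.16, with -0.48 within rRNA-depleted and 0.23 within poly(A) libraries. The 2 genes called were Lrp2, the endocytic receptor megalin, at -1.75 ± 0.25 and Lrp8, an apolipoprotein E receptor, at -1.68 ± 0.20 (limma adjusted p = 0.0253 and 0.0206). Lrp2 had 3.99, 0.732 and 0.621 TPM at PD2, PD8 and PD14 in rRNA-depleted libraries and 4.94, 0.894 and 0.616 TPM in poly(A) libraries. It reached 1 TPM only at PD2, so it passed the filter through the stage where it was high. With 1 TPM required in all 6 libraries limma called 1 uptake gene lower. Lrp8 had 19.5, 11.4 and 6.20 TPM at PD2, PD8 and PD14 in rRNA-depleted libraries and 22.3, 10.5 and 5.47 TPM in poly(A) libraries. Of 2 known substrates of the Mylip protein in the list, Lrp8 was called lower and Vldlr was not, at -0.12 ± 0.18 (limma adjusted p = 0.670). The Mylip protein marks receptor proteins for degradation, so these transcript levels do not measure its action. Of 22 genes for cholesterol handling inside the cell, all tested, limma called 0 higher and 5 lower, with a median of 0.07. They included Stard4 at -1.36 ± 0.16, Insig1 at -1.24 ± 0.16, Tmem97 at -1.06 ± 0.12 and Srebf2, the SREBP gene of sterol synthesis, at -0.86 ± 0.11 (limma adjusted p = 0.0205, 0.0214, 0.0198 and 0.0222).

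The relatives of the efflux transporters and of Lpcat3 gave 1 call in all. Of 14 other ABCA and ABCG genes 9 were tested, and limma called 0, beside 11.2% of all genes. The median log2 change of the 9 was 0.25. An unadjusted p under 0.05 was found for 2 of the 9, beside 4266 of the 13332 genes tested. The largest values were Abca9 at 1.11 ± 0.50 and Abca8a at 0.77 ± 0.29 (limma adjusted p = 0.198 and 0.146). Of 14 other lysophospholipid acyltransferases, all tested, limma called 0 higher and 1 lower, Agpat1 at -0.65 ± 0.14 (limma adjusted p = 0.0454). That count stood beside 4.77% of all genes called lower. Among 15 other apolipoprotein and acceptor genes, 6 were tested, with a median of 1.40. Beside 6.41% of all genes called higher, limma called 4 of the 6 higher and 0 lower. These were Saa3 at 4.95 ± 0.76, Clu at 3.16 ± 0.45, Apod at 1.58 ± 0.30 and Apol6 at 1.23 ± 0.22 (limma adjusted p = 0.0277, 0.0252, 0.0391 and 0.0338).

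The calls of these lists hold for the PD14 against PD2 comparison, since no list gene was called at PD8 against PD2 or at PD14 against PD8. Of 41 list genes followed through the alternatives, marker lists included, limma called 33 in the fit reported here, 26 without the PD2 rRNA-depleted library and 30 without the PD2 poly(A) library. Without the PD8 rRNA-depleted library 2 were left (Lbp and Scd1), without the PD8 poly(A) library 1 (Lbp), and without either PD14 library 0. Limma called 17 of the 41 without the filter on low values, 24 without the mean-variance trend and 0 without the method block. Without the filter, neither Rxra nor Nrip1 was called and none of the oxysterol genes was called higher. Exons of Pltp overlap Ctsa on the opposite strand over 495 bases. Cyp51, Map2, Agpat1, Apol6 and Apoh have opposite-strand overlaps of 166 bases or fewer.

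Macrophages express several of the 8 genes, and their markers moved differently in the 2 methods. The 20 macrophage and leukocyte markers summed to 181, 36.4 and 48.2 TPM at PD2, PD8 and PD14 in rRNA-depleted libraries and to 462, 793 and 758 TPM in poly(A) libraries. Lyz2 alone had 98.5, 15.1 and 21.7 TPM and 337, 621 and 569 TPM in the same order, and Cx3cr1 stayed under 1 TPM in all 6. Of 19 tested, limma called 0, with 5 at an unadjusted p under 0.05, beside 4266 of the 13332 genes tested. The median log2 change of the 19 was -1.16 within rRNA-depleted and 0.50 within poly(A) libraries. Some markers were higher, among them Adgre1 at 1.08 ± 0.77 and Cd14 at 0.80 ± 0.30 (limma adjusted p = 0.380 and 0.142). The largest values, both lower, were C1qa at -1.62 ± 0.53 and C1qc at -1.43 ± 0.48 (limma adjusted p = 0.109 and 0.114). Without the PD2 poly(A) library limma called 5 of these markers lower, C1qa at -2.59 (adjusted p = 0.00962) and C1qc at -2.26 (0.0144) among them. Without the PD2 rRNA-depleted library it called 2 higher, and C1qa stood at -0.66 and C1qc at -0.59. The PD2 library thus had the highest sum of the rRNA-depleted libraries and the lowest of the poly(A) libraries. The part of these markers in the values of Abca1, Abcg1 and Apoe was not tested.

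LXRα is also a gene of fat cells, and adipocyte markers were set beside Nr1h3. The 12 markers summed to 82.2, 125 and 128 TPM at PD2, PD8 and PD14 in rRNA-depleted libraries and 50.8, 86.4 and 80.2 TPM in poly(A) libraries. Adipoq, Plin1, Cidec, Lep, Retn and Cfd, which mark mature adipocytes, stayed under 1 TPM in all 6 libraries. Of 6 tested, limma called 0, with 1 at an unadjusted p under 0.05, beside 4266 of the 13332 genes tested. The median log2 change of the 6 was 0.66, with 0.87 within rRNA-depleted and 0.38 within poly(A) libraries. Pparg had 5.44, 19.0 and 23.9 TPM in rRNA-depleted and 2.14, 2.43 and 2.46 TPM in poly(A) libraries, and its log2 change was 1.05 ± 0.47 (limma adjusted p = 0.199). For Plin4 the log2 change was 2.01 within rRNA-depleted and -0.23 within poly(A) libraries, with a fitted value of 0.89 ± 0.55 (limma adjusted p = 0.322). Without the PD2 poly(A) library Pparg stood at 1.88 and Plin4 at 1.87, and without the PD2 rRNA-depleted library they stood at 0.22 and -0.10. These values cover the 2 genes and not the other markers. The part of these markers in the Nr1h3 change was not tested.

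Markers of 4 further cell types were set beside the 8 genes. At PD14 against PD2, 6.41% of all genes were called higher and 4.77% lower. Of 9 hepatocyte markers the sums lay between 0.631 and 6.52 TPM, and Fgb was listed at 0. Limma called 0 of the 2 tested. Apoh, at 1.16 ± 0.27 (limma adjusted p = 0.0537), had an unadjusted p under 0.05, as did 4266 of the 13332 genes tested. It passed the filter only through PD14, at 1.27 and 1.43 TPM. Alb stood at 0.76 ± 0.47 (limma adjusted p = 0.319). Endothelial cells also express Scarb1, and their 10 markers summed to 50.8, 28.4 and 31.2 TPM at PD2, PD8 and PD14 in rRNA-depleted libraries and to 111, 70.6 and 69.3 TPM in poly(A) libraries. Kdr, at -1.38 ± 0.24, and Flt1, at -0.75 ± 0.17, were called lower by limma (adjusted p = 0.0330 and 0.0496), while Pecam1 and Cdh5 were under 1 TPM and Tie1 and Sox17 were listed at 0 in all libraries. Of the other tested markers Tek stood at 0.33 ± 0.37, Esam at 0.36 ± 0.35, Emcn at -0.94 ± 0.28 and Erg at -1.09 ± 0.40, and none passed (limma adjusted p = 0.582, 0.514, 0.0909 and 0.135). The part of endothelial RNA in the fall of Scarb1 was not tested. Neural markers summed to 108, 193 and 244 TPM at PD2, PD8 and PD14 in rRNA-depleted libraries and to 113, 131 and 123 TPM in poly(A) libraries. Of 6 tested, limma called 1 higher, Map2 at 1.59 ± 0.34 (limma adjusted p = 0.0461), and 0 lower. The median log2 change of the 6 was -0.17, so Map2 does not stand for the list. Of the 15 fibroblast markers limma called 4 higher and 0 lower: Lum at 1.92 ± 0.27, Dcn at 1.72 ± 0.18, Col3a1 at 1.35 ± 0.19 and Twist1 at 0.73 ± 0.11 (adjusted p = 0.0244, 0.0183, 0.0244 and 0.0276).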

How the data were processed

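RNA from MEFs at 3 stages was sequenced as 2 libraries per stage, which the labels number as replicates: rRNA-depleted and strand-specific (1) and poly(A)-enriched (2). The labels do not say that they came from separate cultures. With library method fitted as a block, p-values measure only how far stage changes differed between the 2 methods in these libraries. They cannot be read as spread between cultures. The authors deposited TPM values for 21988 genes. The submitters' processing notes name the mm10 build, bcl2fastq, cutadapt 1.14, HISAT2 2.0.5 and StringTie 1.3.1c. The deposited TPM sum to 1000000 in poly(A) libraries and to 93.8%, 95.1% and 93.7% of that in rRNA-depleted ones (PD2, PD8, PD14). TPM keep no read depth, so the depth is unknown and no counting interval is given.

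Genes with at least 1 TPM in at least 2 of the 6 libraries (13332) were fitted as log2(TPM + 1) with limma 3.58.1 in R 4.3.3. The fit held stage and, as a block, library method, used all 6 libraries (2 residual degrees of freedom) and a mean-variance trend. Limma added 3.22 prior degrees of freedom drawn from all genes tested, so each variance is largely shared across genes. Tests were two-sided, with Benjamini-Hochberg adjustment over all genes tested and a threshold of 0.05, and the fitting was tested on simulated data. A fold on this scale understates the change of low genes. The replicate number is the library method by the labels, and the difference between methods correlated over genes at 0.752 (PD2 and PD8), 0.664 (PD2 and PD14) and 0.854 (PD8 and PD14).

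The 8 genes, the 14 lists beside them and the tests were chosen with earlier results of these data known. All 8 genes are named. From each list the text names the called genes, at most the 4 with the largest change of the same sign in both methods, or the 2 largest where none was called, and says where it goes beyond this. Some genes of these pathways are not reported here, and the list counts leave them out. Alternatives were another pseudocount, filter, scaling or variance model, no block, and leaving out each library. Positions come from GENCODE M21 (mm10) and promoters from RefSeq (GRCm38.p6). Exon overlaps of the list genes with antisense neighbours could add reads from the other strand in unstranded libraries.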

Additional observations from a re-analysis of the deposited data

Results flagged for a closer look

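For 6 comparisons of single genes libraries of the 2 methods moved in opposite directions. Each method has 1 library per stage, so these differences between methods were not tested. The values below are the log2 change within rRNA-depleted libraries minus that within poly(A) libraries. Apoe differed by 2.53 at PD14 against PD2 and by 2.19 at PD14 against PD8, both set by the PD14 libraries. Abca1 differed by -1.69 at PD8 against PD2, with changes of -0.34 in rRNA-depleted and 1.35 in poly(A) libraries. Abcg1 differed by -0.788 at PD8 against PD2. Mylip differed by -0.653 at PD8 against PD2 and by -0.273 at PD14 against PD2.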

How the results depend on the processing

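At PD14 against PD2, 1490 genes were called (854 higher, 636 lower). Without the filter on low values 404 were called, without the mean-variance trend 938, and leaving out 1 library gave 0 (no PD14 rRNA-depleted library) to 1804 (no PD2 rRNA-depleted library), each such fit keeping 1 residual degree of freedom less. Quantile normalization gave 736 higher and 834 lower, and equal medians 707 higher and 842 lower. Of the 8 genes 2 were called, with 0 without the filter, 1 without the trend, and 0 to 3 with 1 library left out. Without the replicate block, which removes the method difference, 0 genes and 0 of the 8 were called, with limma adjusted p = 0.263 for Nr1h3 and 0.420 for Scarb1. Without the filter these were 0.0609 and 0.0653, and without the trend Scarb1 had 0.0534. Nr1h3 and Scarb1 kept their direction at PD14 against PD2 in all 13 alternatives.

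At PD8 against PD2, 3 genes were called, with 21 at a pseudocount of 0.1, 0 without the filter, without the block, with quantile normalization or without the trend, and 0 to 641 with 1 library left out. For the 8 genes that range was 0 to 1. At PD14 against PD8 leaving out 1 library gave 0 to 1 genes. The test over 3 stages called 195 genes, 325 with at least 1 TPM in all 6 libraries, 0 without the filter, the block or the trend, and 0 to 908 with 1 library left out, when 0 to 1 of the 8 genes were called.

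Directions turned only for changes that had not passed the test. Mylip at PD14 against PD2 was -0.0652 with quantile normalization and -0.0703 with equal medians, and Nr1h2 at PD14 against PD8 was -0.0212 and -0.0258. With 1 library left out, PD14 against PD2 ran from -0.208 to 0.255 for Mylip and from -1.07 to 1.299 for Apoe. PD8 against PD2 ran from -0.261 to 1.28 for Abca1, -0.352 to 0.247 for Abcg1, -0.441 to 0.0758 for Mylip and -0.908 to 0.529 for Apoe. PD14 against PD8 ran from -0.0375 to 0.0505 for Nr1h2, -0.0976 to 0.902 for Abca1, -0.0523 to 0.464 for Mylip, -0.876 to 1.49 for Apoe and -0.520 to 0.00313 for Scarb1. Of the 41 list genes, 1 turned, Plin4 at -0.102 without the PD2 rRNA-depleted library. The list alternatives were chosen after seeing the data, and the cause of these shifts was not tested. With 2 libraries per stage that differ in method, biological and technical spread cannot be told apart.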
